A study of Petunia x hybrida with 10 samples.

Results

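The 6 lists of N1-methyladenosine (m1A) peaks from petunia corollas, of 10 peak lists in the series, held 56524 of its 62877 peaks, and were taken as the lists of the 6 libraries whose label names an anti-m1A antibody. Petunia cultivar Mitchell, a white-flowered laboratory line, was the source, and the corolla is the ring of fused petals of the flower. Air 1, air 2 and air 3 were kept in air for 16 h, and ethylene 1, ethylene 2 and ethylene 3 received the hormone ethylene at 2 µl/l for 16 h, with cultivar, tissue, time and antibody shared by both groups. The other 4 lists are titled N6-methyladenosine (m6A) and serve below only as a comparison of peak width. Whether different plants stand behind the libraries of a treatment is not stated in the labels. The p-values below therefore measure the spread between these libraries, which may be technical.

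N1-methyladenosine carries its methyl group on the face of adenine that pairs with other bases, so that it can block pairing and stop a reverse transcriptase. It is well known from transfer RNA, where a TRM6/TRM61 methyltransferase complex makes it, and it is mapped in messenger RNA by pulling down fragmented RNA with an antibody and calling peaks of reads. Ethylene is the gaseous plant hormone that drives wilting of petunia petals after pollination. A list of peaks gives where enriched RNA fragments were called and not how much of a transcript was methylated. A peak also needs the transcript to be expressed, and a change in RNA level cannot be told apart from a change in methylation in these lists, nor can fewer cells of a type from less RNA per cell.

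The lists differed widely in length, within treatments as well as between them. Air 1 listed 15593 peaks, air 2 listed 17573 and air 3 listed 6760. Ethylene 1 listed 7526 peaks, ethylene 2 listed 1013 and ethylene 3 listed 8059. The treatments overlapped, because air 3 lay below ethylene 1 and ethylene 3. The names of the peaks ran to number 22337 in air 1, 25390 in air 2 and 9216 in air 3, and to 10791, 1555 and 11342 in ethylene 1, 2 and 3. Each list thus kept 65.1 to 73.4% of the highest number in its own names. The highest number was also lowest in ethylene 2, as its list was the shortest. The rows of air 1, air 2 and ethylene 2 ascended in peak number throughout. Those of air 3, ethylene 1 and ethylene 3 restarted once at a low number partway through. The origin of this difference in row order is not given in the sources used here. Read depth is unknown for every list. A deeper library can yield more peaks at the same methylation. The lists name no genes, and the corolla was not checked against marker genes.

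Peak width was nearly the same in 5 of the 6 libraries. The median m1A peak was 159 bp wide in air 1, 158 bp in air 2 and 160 bp in air 3. It was 156 bp in ethylene 1, 146 bp in ethylene 2 and 162 bp in ethylene 3. The air medians lay inside the range of the ethylene medians, and ethylene 2 was the lowest library. The group means were 159 ± 1.00 bp in air and 154.7 ± 8.08 bp after ethylene (SD, n = 3 each), a difference of -4.33 bp (exact permutation test, two-sided, p = 0.6, smallest possible 0.1, adjusted p = 0.6 over 12 library values). Without ethylene 2 the means were equal.

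The upper end of the width distribution separated ethylene 2 more clearly. Peaks wider than 300 bp made up 16.0% of air 1, 16.3% of air 2 and 16.1% of air 3. They made up 14.1% of ethylene 1, 5.23% of ethylene 2 and 16.9% of ethylene 3. The difference between group means was -4.02 percentage points (exact permutation p = 0.4, adjusted p = 0.436) and -0.595 points without ethylene 2 (exact permutation p = 0.7). The 95th percentile of width was 304 bp in ethylene 2 and 479 to 523 bp in the other 5 lists. Peaks under 30 bp made up 5.75 to 7.01% of every list, and 5 lists held peaks of 1 bp.

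**Figure D1:**
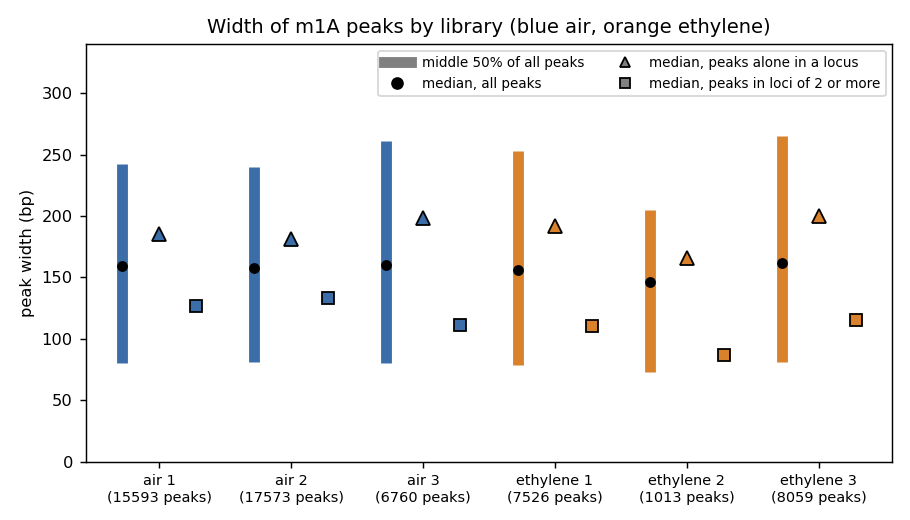
Width in bp of m1A peaks in each library (blue air, orange ethylene). Bars span the middle 50% of all peaks of a list, dots are medians of all peaks, triangles medians of peaks alone in their 2 kb locus and squares medians of peaks in loci of 2 or more. The medians of all peaks lie between 146 and 162 bp, and in every library the triangle lies above the square, by 48 to 87 bp.

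A peak's width went with its neighbourhood in every library. Peaks of a library were chained into a locus wherever the gap to the next was 2 kb or less. Peaks alone in their locus had a median width of 185, 181 and 198 bp in air 1, 2 and 3 and of 192, 166 and 200 bp in ethylene 1, 2 and 3. Peaks in loci of 2 or more had medians of 127, 133 and 111 bp in air and of 110.5, 86.5 and 115 bp after ethylene. Isolated peaks were wider in 6 of 6 libraries, by 73.2 ± 16.2 bp (SD, n = 6, exact sign-flip permutation p = 0.0312, the smallest possible), a comparison chosen after the data were seen. The difference was 64.3 ± 20.3 bp in air and 82.0 ± 2.78 bp after ethylene (SD, n = 3 each) and did not pass a test between treatments (exact permutation p = 0.4).

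Peaks in regions that recurred between libraries were wider. Peaks in regions found in a single library had medians of 95 to 118 bp. Peaks in regions of 2 or 3 libraries had medians of 147 to 180 bp and those in regions of 4 to 6 libraries medians of 188.5 to 278 bp. In each of the 6 libraries the order was the same. A wider peak has more positions at which another can overlap it, so these medians are a description and were not tested.

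In regions present in all 6 libraries the air peaks were wider on average, within the spread of the libraries. The median width of the peaks in these 60 regions was 424.5 bp in air 1, 428.5 bp in air 2 and 344 bp in air 3. It was 340 bp in ethylene 1, 214 bp in ethylene 2 and 377 bp in ethylene 3. The treatments overlapped, with air 3 below ethylene 3 (difference of means -88.7 bp, exact permutation p = 0.2, adjusted p = 0.36). In the 411 regions of the 5 libraries other than ethylene 2 the difference was -31.3 bp (exact permutation p = 0.3).

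Among the 10 widest of the 60, coordinates are those of the Peaxi162 scaffolds, counted from 1, and no gene annotation was used to place them. Peaxi162Scf00198 from 864961 to 867810 spanned 2850 bp, of which peaks covered 1837, 2642 and 799 bp in air 1, 2 and 3 and 886, 228 and 1502 bp in ethylene 1, 2 and 3. Peaxi162Scf01112 from 266753 to 269403 was covered over 930, 2651 and 980 bp in air and over 655, 172 and 1094 bp after ethylene. Peaxi162Scf00147 from 504524 to 505547 was covered in full, 1024 bp, by a single peak in each library except ethylene 2, which had 239 bp in 2 peaks. Ethylene 2 covered the fewest bp in all 10, with 172 to 514 bp. Among the other 5 libraries the covered bp of the treatments overlapped in 9 of the 10. Air 1 or air 2, the longest lists, covered more bp than any other list in 6 of the 10 and tied with another list for most in 2, and air 3 covered fewer bp than ethylene 3 in 7.

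The m1A peaks were narrower than those titled m6A. The median width averaged 156.8 ± 5.67 bp over the m1A lists (SD, n = 6) and 272.75 ± 10.3 bp over the m6A-titled lists (SD, n = 4), which ranged from 261 to 286 bp, so the marks did not overlap (difference -116 bp, exact permutation p = 0.00476, 210 regroupings). The ethylene minus air difference was -4.33 bp for m1A and -13.5 bp for m6A, and these were not shown to differ (difference 9.17 bp, exact permutation p = 0.467). The sets differ also in lowest score and columns, and the part of the processing in the width difference was not tested.

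Spacing followed list length. The median gap between neighbouring peaks of a scaffold was 5002 bp in air 1, 4373 bp in air 2 and 16627 bp in air 3. It was 16636 bp in ethylene 1, 66904.5 bp in ethylene 2 and 14041 bp in ethylene 3. Air 3 lay between the ethylene libraries (means 8667 ± 6900 bp in air and 32527 ± 29800 bp after ethylene, SD, n = 3 each, exact permutation p = 0.2, adjusted p = 0.36). Without ethylene 2 the ethylene mean was 15338.5 bp (exact permutation p = 0.3).

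Neighbours closer than 200 bp were rare, at 0.121 to 0.914% of the gaps of a list. Gaps of 2 kb or less were 34.7% of all in air 1, 36.0% in air 2 and 26.4% in air 3. They were 25.6% in ethylene 1, 24.0% in ethylene 2 and 26.9% in ethylene 3. Air 1 and air 2 stood above the rest, and air 3 lay among the ethylene libraries (difference of means -6.89 percentage points, exact permutation p = 0.2, adjusted p = 0.36). Within 2 kb, the median gap was 814 to 965 bp in the 6 lists. Gaps over 100 kb made up 43.5% in ethylene 2 and 11.8 to 23.5% elsewhere.

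**Figure D2:**
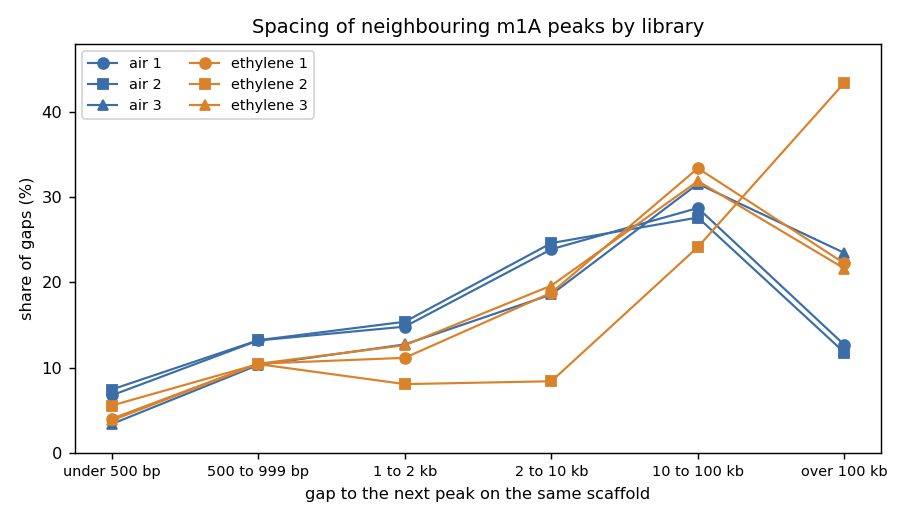
Share in percent of the gaps between neighbouring m1A peaks of a scaffold that fall in each of 6 length classes, 1 line per library (blue air, orange ethylene). Air 1 and air 2 run together, air 3 runs with ethylene 1 and ethylene 3, and ethylene 2 stands apart with 43.5% of its gaps over 100 kb.

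A measure that random thinning of a list leaves unmoved on average gave the opposite order. Of all pairs of peaks on the same scaffold, 1.68% in air 1, 1.58% in air 2 and 2.52% in air 3 lay within 2 kb by their midpoints. The shares were 2.16% in ethylene 1, 6.83% in ethylene 2 and 2.08% in ethylene 3. The order of the 6 lists by this share was the exact reverse of their order by length, with the shortest list most clustered, and the treatments overlapped (exact permutation p = 0.3, adjusted p = 0.36). When each list was thinned to the 1013 peaks of ethylene 2, gaps of 2 kb or less were 4.56 to 7.43% in the other 5 lists against the 24.0% of ethylene 2 itself. The median gap of the thinned lists was 154406 to 168055 bp, against 66904.5 bp. Peaks of ethylene 2 thus lay closer together than those of the other lists thinned at random to the same number. A short list need not be a random draw of a longer one, and this was not tested.

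Peaks per scaffold repeated this pattern. Over the 6 lists, 1240 scaffolds carried a peak, 387 of them in every library. Air 1, 2 and 3 had peaks on 1131, 1154 and 965 scaffolds, and ethylene 1, 2 and 3 on 974, 417 and 1002. An occupied scaffold carried 13.8, 15.2 and 7.01 peaks on average in the air libraries and 7.73, 2.43 and 8.04 in the ethylene libraries. Air 3 carried fewer than ethylene 1 and ethylene 3 (means 12.01 ± 4.39 in air and 6.07 ± 3.15 after ethylene, SD, n = 3 each, exact permutation p = 0.3, adjusted p = 0.36). Scaffolds with a single peak made up 50.6% of those occupied in ethylene 2 and 10.9 to 18.4% in the others. With all lists thinned to 1013 peaks, the 3 air lists occupied 494 to 507.5 scaffolds and ethylene 1 and 3 occupied 487 and 491, against 417 in ethylene 2. The air lists then lay above the ethylene lists (means 500.9 ± 6.63 and 465 ± 41.6, SD, n = 3 each, exact permutation p = 0.1, the smallest possible), with 494 in air 3, the lowest of them, against 491 in ethylene 3.

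The same scaffolds led in most libraries. Peaxi162Scf00016 carried most peaks over the 6 lists, 807, and held 13.7, 13.4 and 14.6 of every 1000 peaks in air 1, 2 and 3 and 14.5, 21.7 and 15.9 in ethylene 1, 2 and 3. Peaxi162Scf00038, with 750 peaks, held 12.95, 12.9 and 12.3 per 1000 in air and 15.4, 22.7 and 12.3 after ethylene. These 2 scaffolds had their highest share in ethylene 2. Peaxi162Scf00003, next with 537 peaks, went the other way in that library, with 4.94 per 1000 against 7.99 to 10.2 in the rest. Up to the last peak end seen on each, the 10 leading scaffolds carried 98.4 to 337 peaks per Mb, densest on Peaxi162Scf00362, against a median of 61.1 over the 840 scaffolds with 12 or more peaks. The 10 scaffolds with most peaks in each list together held 14.5% of the peaks of ethylene 2 and 9.33 to 9.98% of the others.

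Whether ethylene moved the share of peaks on a scaffold was then tested over those 840 scaffolds, with limma on the number of peaks weighted for list length (voom). No scaffold passed an adjusted p of 0.05 in either direction, 0% of those tested, and 42 had an unadjusted p under 0.05. Of these, 28 were higher after ethylene, 3.33% of those tested, and 14 were lower, 1.67%. The split turned with the value added before the logarithm, to 12 higher and 30 lower with limma-trend, which adds the same share to every list, and to 2 higher and 29 lower with voom weights and an added value proportional to list length, so no direction is read from it. The groups did not overlap in peaks per 1000 on 33 scaffolds that were higher after ethylene, 3.93% of those tested, and on 75 that were lower, 8.93%. Ethylene 2 had no peak on 64 of these 75 (85.3%), against 442 of all 840 (52.6%). By definition it had a peak on each of the 33 that were higher, as a list without a peak cannot lie above the air lists.

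The scaffold with the lowest p was Peaxi162Scf00521, with 4, 3 and 0 peaks in air 1, 2 and 3 and 8, 2 and 5 in ethylene 1, 2 and 3. Its log2 difference in share was 2.24 (SE 0.55, limma adjusted p = 0.414). Peaxi162Scf00380 had 0.770, 0.967 and 0.888 peaks per 1000 in air and 1.99, 2.96 and 1.61 after ethylene, without overlap, a log2 difference of 1.11 (SE 0.32, limma adjusted p = 0.432). In the other direction, Peaxi162Scf00061 had 15, 17 and 6 peaks in air and 2, 0 and 1 after ethylene, a log2 difference of -1.85 (SE 0.49, limma adjusted p = 0.432). Peaxi162Scf00238 had 15, 15 and 8 peaks in air and 2, 0 and 2 after ethylene (log2 difference -1.55, SE 0.43, limma adjusted p = 0.432). None of the 10 scaffolds with the lowest p in a direction passed the test.

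**Figure D3:**
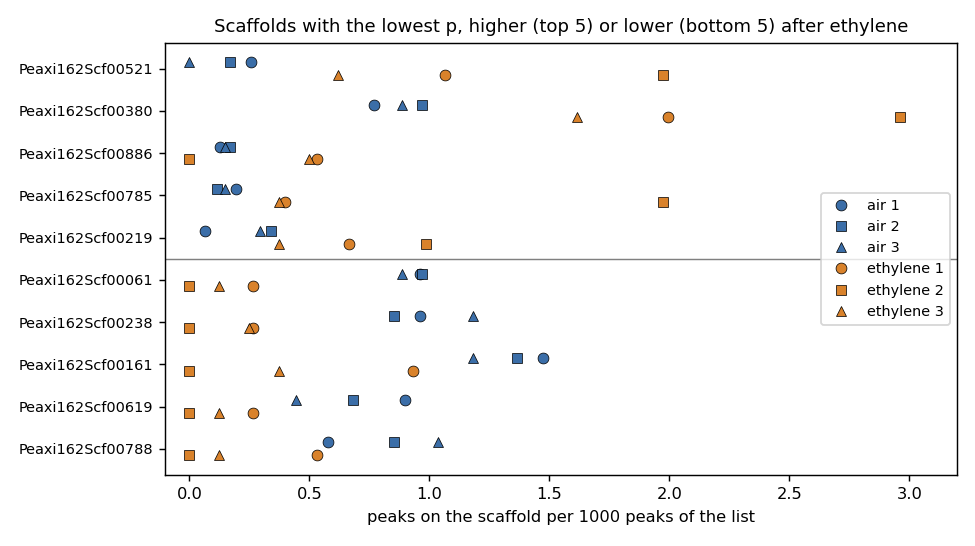
Peaks on a scaffold per 1000 peaks of the list, 1 symbol per library (blue air, orange ethylene), for the 5 scaffolds with the lowest p among those higher after ethylene (top) and the 5 among those lower (bottom). None passed limma's adjusted threshold, and ethylene 2 is at 0 on all 5 of the lower ones.

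Chaining within 2 kb gave 10572 loci in air 1, 11661 in air 2 and 5231 in air 3. It gave 5850 in ethylene 1, 870 in ethylene 2 and 6164 in ethylene 3. A locus held 1.47, 1.51 and 1.29 peaks on average in the air libraries and 1.29, 1.16 and 1.31 in the ethylene libraries. Air 3 lay between ethylene 1 and ethylene 3, and the difference of means of -0.172 peaks per locus did not pass (exact permutation p = 0.2, adjusted p = 0.36). Loci of 2 or more peaks held 54.2, 56.4 and 40.6% of the peaks in air and 39.8, 26.7 and 41.9% after ethylene (exact permutation p = 0.2, adjusted p = 0.36). With the lists thinned to equal length the direction turned, to 5.63 ± 1.61% in air and 13.2 ± 11.6% after ethylene (SD, n = 3 each, exact permutation p = 0.3).

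Most loci were single peaks in every library. They made up 67.6, 65.7 and 76.7% of the loci in air 1, 2 and 3 and 77.5, 85.4 and 75.9% in ethylene 1, 2 and 3. Loci of 4 or more peaks made up 3.34 and 3.70% in air 1 and air 2, 0.975% in air 3, 1.35% in ethylene 1, 0.460% in ethylene 2 and 1.33% in ethylene 3. The fullest locus of a single list held 9 peaks, in air 2. Loci of 2 or more peaks had a median span of 1076 bp in ethylene 2 and of 1383.5 to 1592.5 bp in the others.

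Chained over all 6 lists, the peaks formed 17059 loci, of which 488 held 12 or more peaks. Peaxi162Scf00020 from 2286218 to 2301485 was the fullest, with 7, 6 and 8 peaks in air 1, 2 and 3 and 7, 1 and 6 in ethylene 1, 2 and 3. Peaxi162Scf00550 from 491505 to 501769 held 6, 6 and 8 peaks in air and 6, 2 and 6 after ethylene. In these loci the numbers were alike in the lists other than ethylene 2, although those lists differed in length. Peaxi162Scf00139 from 1224823 to 1241131 varied more, with 9, 4 and 4 peaks in air and 5, 0 and 8 after ethylene. Ethylene 2 had no peak in 5 of the 10 fullest loci.

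The limma test over the 488 loci called none at an adjusted p of 0.05, 0% in either direction. The unadjusted p was under 0.05 in 70, of which 68 were higher after ethylene, 13.9% of those tested, and 2 were lower, 0.41%. The median log2 difference over all 488 was 0.41, which scaling between libraries reduced to 0.07, so that a difference at a locus is read relative to that shift. The test adds the same number to every list, which weighs more in a short list and at loci of few peaks. With limma-trend the split was 8 higher and 11 lower, and with an added value proportional to list length it was 11 and 17, again with no call. No direction is read from the split. Scale normalization called 2 loci (lowest limma adjusted p = 0.00198) and the replicate number as a block called 4 (lowest limma adjusted p = 0.0257), all higher after ethylene. The lack of calls at loci of so few peaks does not show that they were alike. The numbers of peaks did not overlap per 1000 in 32 loci higher after ethylene, 6.56%, and in 28 lower, 5.74%. Ethylene 2 had no peak in any of these 28, against 346 of all 488 (70.9%). By definition, a locus is higher here only if every ethylene list, ethylene 2 included, has a peak in it. A single peak of ethylene 2 is 0.987 per 1000, so a lower locus with such a peak needs more than that in every air list. Both sets thus depend largely on whether ethylene 2 had a peak, and nothing is read from them. Peaxi162Scf00469 from 300438 to 306473 had the lowest p, with 3, 0 and 1 peaks in air and 3, 2 and 4 after ethylene (log2 difference 3.06, SE 0.75, limma adjusted p = 0.0806). Peaxi162Scf00073 from 1110587 to 1115646 had 1, 1 and 4 peaks in air and 5, 0 and 3 after ethylene (log2 difference 2.37, SE 0.62, limma adjusted p = 0.1001). Among loci lower after ethylene, Peaxi162Scf00789 from 209526 to 226300 had 10, 5 and 3 peaks in air and 3, 0 and 0 after ethylene (log2 difference -1.51, SE 0.69, limma adjusted p = 0.311).

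Without ethylene 2, 10 of 436 loci passed, all higher after ethylene, and the median log2 difference over the loci was 0.40. The lowest adjusted p among them was at the locus on Peaxi162Scf00073 named above (log2 difference 2.38, limma adjusted p = 0.00201), where air 3 had 4 peaks and lay between ethylene 3 and ethylene 1. The next was Peaxi162Scf00065 from 144645 to 149637, with 1, 3 and 2 peaks in air and 5 and 4 in ethylene 1 and ethylene 3 (log2 difference 2.07, limma adjusted p = 0.00889). Each of the 10 held at most 5 peaks in any library. Passing did not require every ethylene list to lie above every air list. At Peaxi162Scf00618 from 290756 to 294233, air 3 held 0.444 peaks per 1000, above ethylene 1 (0.399) and ethylene 3 (0.372). At Peaxi162Scf00192 from 1095860 to 1102365, air 1 (0.321) and air 3 (0.296) lay above ethylene 3 (0.248). At others, such as that on Peaxi162Scf00065, both ethylene lists lay above the air lists. With the added value proportional to list length 2 loci passed, those on Peaxi162Scf00073 (limma adjusted p = 0.0211) and Peaxi162Scf00065 (limma adjusted p = 0.0424), and with limma-trend none did (lowest limma adjusted p = 0.304, unadjusted p under 0.05 in 44 loci). These combinations, and the proportional value itself, were chosen after the data were seen.

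Presence was recorded per merged region, which joins peaks of all lists that share 1 bp or more, and again per pooled locus and per scaffold. Regions were joined through chains of overlaps, so the libraries present in a region need not all share a bp. The agreement between treatments depended on the scale. Of 36717 regions, 61.3% were seen in air only, 17.2% after ethylene only and 21.5% in both. Of 17059 loci, 47.5% were seen in air only, 9.60% after ethylene only and 42.9% in both. Of 1240 scaffolds, 12.1% were seen in air only, 1.61% after ethylene only and 86.3% in both. Read from the ethylene side, 55.5% of its 14218 regions, 81.7% of its 8964 loci and 98.2% of its 1090 scaffolds were also in air. Read from the air side, these shares were 26.0% of 30394 regions, 47.5% of 15421 loci and 87.7% of 1220 scaffolds. The unequal shares go with the longer air lists. Leaving out ethylene 2 moved none of the shares seen in both treatments by more than a percentage point, as it added 344 regions of its own.

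**Figure D4:**
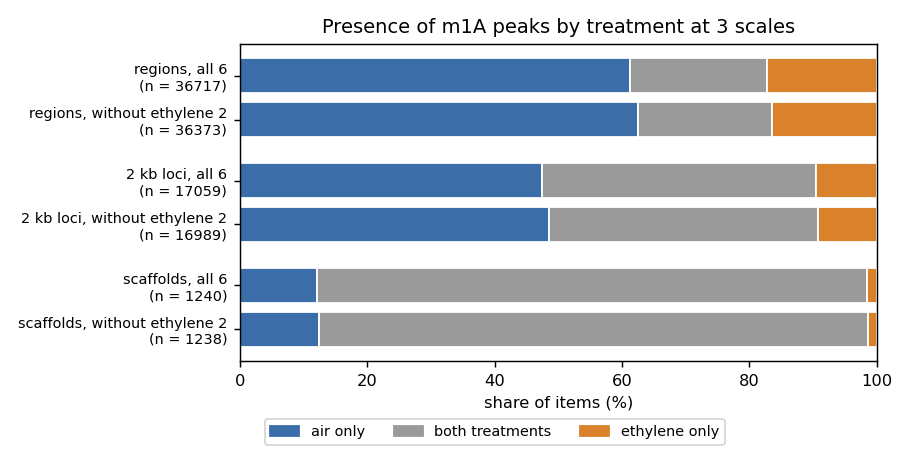
Share in percent of merged regions, 2 kb loci and scaffolds with m1A peaks in air only (blue), in both treatments (grey) and after ethylene only (orange), over all 6 libraries and without ethylene 2. The grey share is 21.5% of regions, 42.9% of loci and 86.3% of scaffolds over all 6 libraries.

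Inside the 7326 loci that both treatments marked, 5667 (77.4%) had at least 1 region shared between treatments. The other 1659 (22.6%) had peaks of both treatments within the same chained locus and no bp in common. Peaks near a peak of another list but beside it were about as common as overlapping ones. Over the 20 ordered pairs of the 5 lists other than ethylene 2, 15.5 to 40.8% of a list's peaks overlapped the other list and 18.3 to 31.7% lay within 2 kb of it without overlap. Another 27.6 to 62.8% lay farther away on a scaffold that the other list also marked, and 0.478 to 3.48% were on a scaffold with no peak there.

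By library, the share of regions found in no other list was 47.1% in air 1, 49.4% in air 2 and 34.3% in air 3. It was 36.4% in ethylene 1, 34.1% in ethylene 2 and 36.0% in ethylene 3. The 2 longest lists held the largest shares of their own, and air 3 lay between ethylene 2 and ethylene 3. Regions of ethylene 1 recurred in an air list in 58.9% of cases and in another ethylene list in 26.3%. Regions of ethylene 3 did so in 59.6 and 24.5%. Those of air 3 recurred in another air list in 55.6% and in an ethylene list in 39.1%. Peaks of these 3 lists overlapped air 1 (35.1 to 35.9%) and air 2 (39.3 to 40.8%) most often, and these were the longest lists. For ethylene 1 and ethylene 3, recurrence was counted over 3 air lists and 2 other ethylene lists, with ethylene 2, the shortest, among them. For air 3 it was counted over 2 other air lists and 3 ethylene lists. The shares of recurrence within and between treatments are thus not like for like.

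Regions in every library of a treatment and none of the other were few. In all 3 air and no ethylene library there were 488 regions, 1.33% of 36717, and in all 3 ethylene and no air library 13, or 0.0354%. At the scale of loci these numbers were 520 of 17059 (3.05%) and 9 (0.0528%), and of scaffolds 18 of 1240 (1.45%) and 0. The widest of the air set was Peaxi162Scf00199 from 257030 to 259939, where air 1, 2 and 3 covered 666, 2910 and 1096 bp. The widest of the ethylene set was Peaxi162Scf00560 from 437425 to 439977, where ethylene 1, 2 and 3 covered 1934, 1605 and 2553 bp. This is the only one of the 5 widest ethylene regions in which ethylene 2 had a peak of more than 219 bp. Without ethylene 2, 502 regions, 1.38% of 36373, were in all 3 air and no ethylene library. Another 319, or 0.877%, were in both remaining ethylene libraries and no air library. The ethylene set then needs 2 libraries and the air set 3, so these counts are not like for like, nor is 319 with the 13 above.

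More sharing within a treatment than between treatments was not shown. At the scale of regions, the Jaccard index (items in both lists over items in either) averaged 15.2% within air, 6.73% within ethylene and 9.84% between treatments. The difference, within less between, came to 1.14 percentage points (two-sided exact permutation over 10 splits, p = 0.3, smallest possible 0.1). For loci the averages were 33.3, 15.3 and 22.2% (difference 2.09 points, exact permutation p = 0.3). For scaffolds they were 82.9, 54.3 and 66.9% (difference 1.73 points, exact permutation p = 0.5). The pair air 1 and air 2 had the highest index at each scale, 20.3, 42.7 and 89.5%, and these were also the longest lists. Without ethylene 2, the 6 pairs between treatments had 12.6 to 14.3% for regions, and the pair ethylene 1 and ethylene 3 had 13.3%. For regions, the pairs of air 3 with air 1 and air 2 had 12.4 and 12.9%, interleaved with the pairs of air 3 with ethylene 1 and ethylene 3, 12.6 and 13.03%. For loci, its air pairs had 28.68 and 28.42% and its ethylene pairs 27.71 and 28.39%, with the lower air pair and the higher ethylene pair nearly equal. For scaffolds, its pair with ethylene 3 was the highest, at 82.3%, against 80.4% with air 1, 79.0% with air 2 and 78.4% with ethylene 1. With every list thinned to 1013 peaks, the order of the averages turned for regions, to 1.15% within air, 1.77% within ethylene and 1.33% between treatments (within less between 0.132 points, exact permutation p = 0.2). For loci it turned to 3.49, 4.73 and 3.79% (0.319 points, exact permutation p = 0.1, the smallest possible), and for scaffolds the averages were 43.6, 42.7 and 43.03% (0.112 points, exact permutation p = 0.8). Ethylene 2 kept all its 1013 peaks and is in every ethylene pair but 1. The thinned averages were not taken without it, so its part in the turn was not tested.

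**Figure D5:**
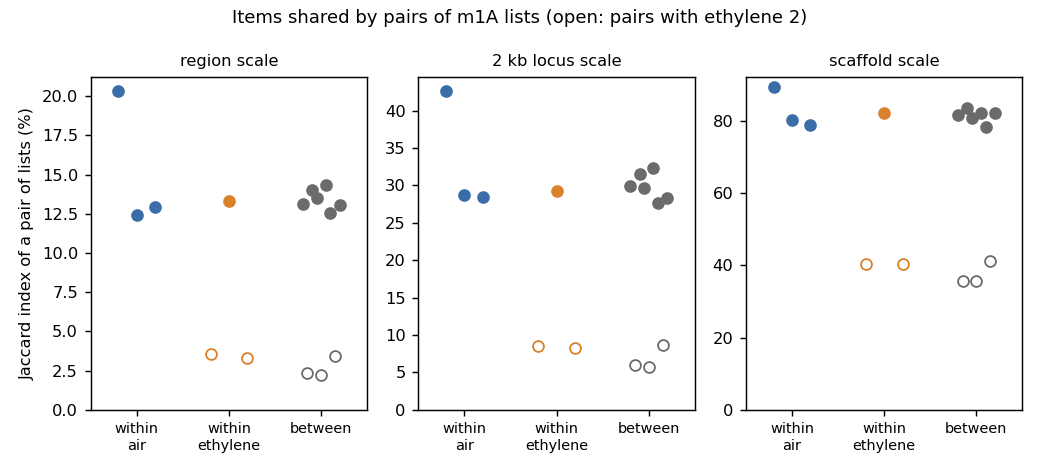
Jaccard index in percent for each pair of m1A lists at the scale of regions, loci and scaffolds, for pairs within air (blue), within ethylene (orange) and between treatments (grey). Open symbols are pairs with ethylene 2. Among the closed symbols only the pair air 1 and air 2 stands above the pairs between treatments.

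The treatment difference had opposite directions in the lists of either row order for 9 of 12 library values, a division chosen after the data were seen. Many of the 12 follow list length, which itself turned, so the 9 are not separate results. Among the lists in ascending order, air 1 and air 2 averaged 16583 peaks against 1013 in ethylene 2. Among those that restart, ethylene 1 and ethylene 3 averaged 7792.5 peaks against 6760 in air 3, a ratio of 1.15. The mean peaks per locus was 1.49 against 1.16 in the first set and 1.29 against 1.30 in the second. The other 3 values were lower after ethylene in both sets. Among them, the share of gaps of 2 kb or less was 35.4% against 24.0% in the first set and 26.4% against 26.2% in the second, and the median width was 158.5 against 146 bp and 160 against 159 bp. Each set has a single library in 1 treatment, so that no test within a set was run. The part of the row order, and of what it may record, in the treatment difference was not tested.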

How the data were processed

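The 6 m1A lists were analysed, with the 4 m6A-titled lists used for peak width alone. The authors deposited 1 list per library with a score per peak, whose scale is not given in the sources used here. It served only to filter peaks. Per the submitters' processing notes, MACS 1.4.2, STAR 2.5.1b, cutadapt 1.9.3 and CASAVA 1.4 are named, without their roles, beside human and mouse builds, whereas the scaffold names are those of a Petunia axillaris assembly (Peaxi162). RNA was pulled down with an anti-m1A antibody and an input was sequenced, per the labels' protocols. The input was not analysed here.

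Starts were read as BED starts, and positions are printed counted from 1. Groups came from the titles. Library values were compared with exact two-sided permutation tests, adjusted by Benjamini-Hochberg over 12 values. Numbers of peaks per scaffold and per pooled locus (12 or more peaks) were tested with limma 3.58.1 and voom weights in R 4.3.3. It was tested on simulated data, where it recovered fewer changes at loci than at scaffolds. Simulated loci without a change reached an unadjusted p under 0.05 more often as higher after ethylene than as lower. Other steps used Python 3.11.15. Named regions were the 10 widest in all 6 lists, the 5 widest of each treatment alone, the 10 fullest scaffolds and loci, and the 5 lowest p in each direction where fewer than 5 passed. Thinned values are means of 20 seeded draws. Members and lists were chosen with earlier results of these data known. Sequencing depth is unknown, so no interval that needs it is given.

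Pairing by replicate number was not shown. Deviations of scaffold shares from the group means correlated at 0.03, -0.08 and -0.06 for numbers 1, 2 and 3. Across different numbers they correlated at -0.08 to 0.09, so these values cannot decide whether the numbers pair the libraries.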

Additional observations from a re-analysis of the deposited data

How the results depend on the processing

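Of 200 alternatives, 177 were counted as unchanged, 6 were weaker, 4 moved the number of limma calls and 13 turned the direction. For library values and sharing, unchanged means only that the difference did not turn, and a difference of 0 bp counts as unchanged. For limma it means only that no feature passed, whichever way the unadjusted split leaned. The replicate block repeats the main difference of each library value by construction, so it could not turn. No library value could pass 0.05 in this design, so staying above it says nothing about stability. Thinning every list to equal length turned 5 differences between ethylene and air, to -37000 bp in the median gap, 6.64 percentage points in gaps of 2 kb or less, 0.168 peaks per occupied scaffold, 0.0482 peaks per locus and 7.60 points in peaks of loci of 2 or more. In each, ethylene 2, which kept all its peaks, lay outside the range of the other 5 lists.

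With each library left out in turn, within minus between sharing ranged from -1.57 to 4.44 points for regions, -3.31 to 9.11 for loci and -6.37 to 13.4 for scaffolds. It was negative without air 1 and without air 2 at each scale, and without air 3 for loci and scaffolds. The median width difference ranged from -8.00 to 0 bp, and the number of peaks from -11050 to -5516. Isolated peaks stayed 70.4 to 78.2 bp wider, with p at 0.0625, the smallest that 5 libraries allow. The m1A minus m6A-titled difference in median width ranged from -119.8 to -111.5 bp, an alternative also chosen after the data were seen.

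Loci passing limma's threshold numbered 0 to 10 with a library left out, 10 without ethylene 2. They numbered 4 with the replicate number as a block and 2 with scale normalization, all higher after ethylene. Chosen after the data were seen, leaving out ethylene 2 with an added value proportional to list length gave 2, and with limma-trend none. The block called no scaffold (lowest limma adjusted p = 0.281), and no alternative did (lowest 0.0613, without ethylene 3). With peaks of score 3100 or more, 653 scaffolds and 22 loci could be tested and none passed.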
